A study of Mus musculus with 9 samples.

Results

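The second postnatal week of mouse hindlimb muscle was examined by comparing 3 microarrays of muscle taken at postnatal day 14 (P14) with 3 taken at postnatal day 7 (P7). These are 6 of the 9 arrays of a postnatal series whose other 3 arrays were from postnatal day 2 (P2). The labels give every sample as skeletal muscle of the hindlimb from mice of mixed strain, with 3 biological replicates at each age and no treatment or genetic change named, and they do not say whether a replicate was 1 animal or a pool. Every gene with a probe set of its own was included, 22180 in all, each represented by its brightest probe set on average. Values are log2 intensities, so a difference of 1 is a 2-fold difference. A gene is said to have risen or fallen where its adjusted p in limma (Benjamini-Hochberg over all 22180 genes) was under 0.05. Errors after ± are standard errors of that fit, with n = 3 arrays at each age.

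During this week of life rodent muscle fibres grow by adding myofibrils and nuclei, shed the last perinatal isoforms of the contractile proteins, and enlarge their mitochondrial network and glycogen stores. Motor axons withdraw until a single axon serves each fibre, and the young become mobile. Circulating thyroid hormone and corticosterone are known to rise in rats and mice around this age, and both hormones act on genes of muscle through nuclear receptors. Satellite cells, the stem cells of muscle, divide less and move towards quiescence.

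The samples carried high levels of the defining transcripts of skeletal muscle, with log2 means of 11.98 at P7 and 12.12 at P14 for skeletal alpha-actin (Acta1), and of 10.72 and 11.21 for muscle creatine kinase (Ckm). Between pairs of arrays the correlation over genes was 0.967 to 0.974 at P7 and 0.981 to 0.984 at P14. The 1411 genes for smell and taste receptors, most of which muscle is not known to express, served as a measure of background. The 95th percentile of their age means was 3.27, and no fold is given where the dimmer mean lies under it. Xist was high in 2 of the P7 arrays and 1 of the P14 arrays, and Y-linked genes were high in the others, so the sexes were not balanced between the ages. When Xist entered the fit as a covariate the number of calls was 500, with 428 shared with the fit without it.

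From P7 to P14, 538 genes changed (2.43% of those tested), of which 382 rose (1.72%) and 156 fell (0.703%). Rises were more numerous but smaller, with a median of 0.98 on the log2 scale among called rises and of -1.14 among called falls. In bulk tissue a change in the number of cells of a type and a change of RNA per cell cannot be told apart. Only 10 rises reached 4-fold against 46 falls. Among the 156 falls were 42 microRNA genes of 1 interval, between Dlk1 and Dio3, whose list had a median of -2.29. The median of the falls and their count at 4-fold thus lean on that interval. The split depended on scaling. After cyclic loess normalization between arrays 240 genes rose and 213 fell, so that 53.0% of calls were rises in place of 71.0%. Brighter genes leaned upwards and dimmer ones downwards. The median change was -0.087 in the dimmest 5545 genes and 0.145 in the brightest 5545, against 0.015 over all genes. The receptor genes had a median change of -0.13, or -0.05 after cyclic loess. All 538 called genes had 3 arrays of one age entirely above the 3 of the other, as did 23.9% of all genes (14.8% higher at P14 and 9.13% lower). The P14 arrays weighed most on the counts. Leaving out P14 replicate 1, 2 or 3 left 220, 214 and 229 calls, leaving out P7 replicate 1, 2 or 3 left 316, 296 and 276, and 177 of the 538 held whichever of the 9 arrays was left out. Beyond the word biological the labels do not say how the replicates were separated, so each p-value is relative to the variation among these samples, part of which may be technical.

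**Figure D1:**
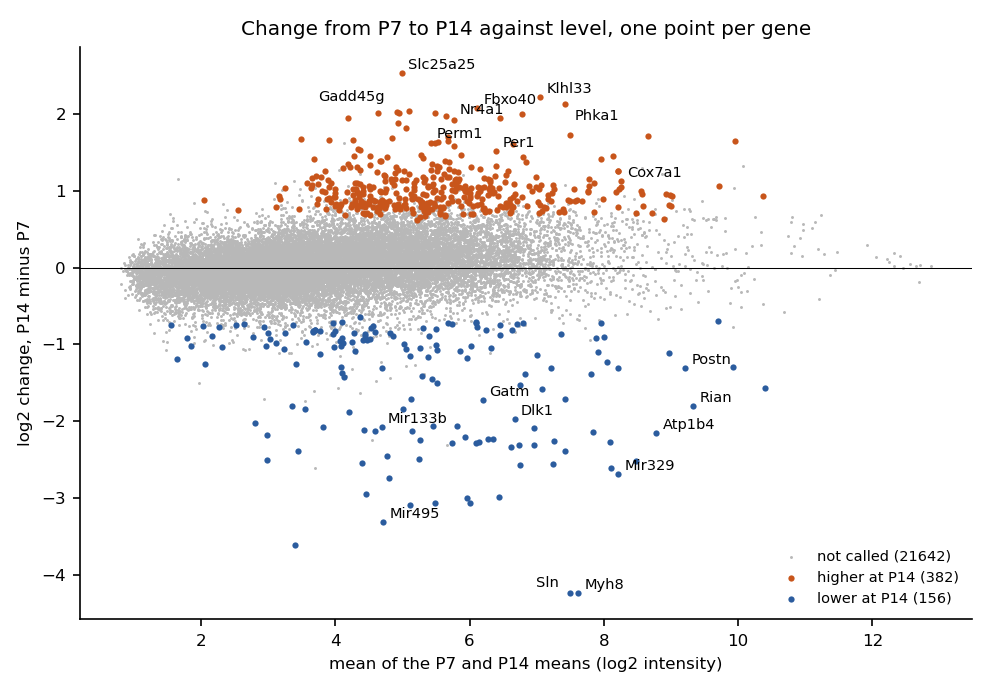
Each point is a gene, with its mean log2 intensity over the P7 and P14 arrays on the horizontal axis and its log2 change from P7 to P14 on the vertical axis; orange points are the 382 genes that rose, blue the 156 that fell and grey the others. The falls of Sln and Myh8, both -4.24, lie far below 0, and the largest rise, that of Slc25a25, is 2.53.

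Among the largest rises were genes of energy transfer, protein turnover and stress signalling. Slc25a25, a calcium-regulated carrier of ATP-Mg and phosphate in the inner mitochondrial membrane, measured 4.05, 3.64 and 3.48 at P7 and 6.38, 6.32 and 6.06 at P14, a rise of 2.53 ± 0.18 (5.8-fold, adjusted p = 4.01e-06). The muscle kelch gene Klhl33 measured 5.75, 5.98 and 6.08 at P7 and 7.99, 8.31 and 8.18 at P14, a rise of 2.22 ± 0.25 (4.66-fold, adjusted p = 0.000155). Phka1, the muscle regulatory alpha subunit of phosphorylase kinase, measured 6.33, 6.38 and 6.32 at P7 and 8.55, 8.59 and 8.31 at P14, a rise of 2.14 ± 0.21 (4.4-fold, adjusted p = 3.25e-05). In each of these 3 genes the arrays of an age lay close together and the ages were far apart. Fbxo40, a muscle F-box protein that directs the insulin receptor substrate IRS1 to degradation, measured 5.13, 5.11 and 4.99 at P7 and 7.25, 7.09 and 7.12 at P14, a rise of 2.08 ± 0.24 (4.22-fold, adjusted p = 0.00019). Gadd45g, a growth arrest gene, measured 4.07, 3.97 and 3.69 at P7 and 5.97, 5.94 and 5.91 at P14, a rise of 2.03 ± 0.20 (4.08-fold, adjusted p = 3.61e-05). The transferrin receptor Tfrc, the route of iron entry into cells, measured 6.59, 7.02 and 6.30 at P7 and 8.38, 8.31 and 8.39 at P14, a rise of 1.72 ± 0.22 (3.3-fold, adjusted p = 0.000525). Other large rises were those of the secreted protein Angptl7 (2.04 ± 0.30), the transcriptional repressor Bcl6 (1.92 ± 0.18), Ankrd9 (1.88 ± 0.26), the muscle membrane gene Smco1 (1.98 ± 0.23) and Nctc1 (1.94 ± 0.19), a non-coding gene beside Igf2 and H19. Cyp4f39 rose by 1.95 ± 0.28 from a P7 mean under the background level, and no fold is given. The calls of all these genes held whichever array was left out.

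The 15 largest falls included the calcium pump regulator Sln, the myosins Myh8 and Myh3, imprinted growth genes and 2 markers of neutrophil precursors, Stfa2l1 (-3.61 ± 0.84) and Stfa3 (-2.18 ± 0.53), whose calls were lost with arrays left out. Sarcolipin (Sln), a small inhibitor of the sarcoplasmic reticulum calcium pump, measured 9.39, 9.60 and 9.84 at P7 and 4.98, 4.79 and 6.35 at P14, a change of -4.24 ± 0.34 (18.9-fold lower, adjusted p = 5.42e-06). Perinatal myosin heavy chain (Myh8) measured 9.79, 9.67 and 9.76 at P7 and 5.50, 5.56 and 5.44 at P14, a change of -4.24 ± 0.16 (18.9-fold lower, adjusted p = 2.26e-09). The P14 arrays of Myh8 lay within a narrow band, whereas replicate arrays of Sln at P14 were spread. Atp1b4, a muscle member of the sodium pump beta-subunit family that is known to have taken on a role at the nuclear envelope in placental mammals, measured 9.94, 9.91 and 9.74 at P7 and 7.6, 7.79 and 7.72 at P14, a change of -2.16 ± 0.16 (4.46-fold lower, adjusted p = 4.01e-06). Gatm, the first enzyme of creatine synthesis, measured 7.05, 7.14 and 6.99 at P7 and 5.22, 5.29 and 5.52 at P14, a change of -1.72 ± 0.16 (3.3-fold lower, adjusted p = 3.01e-05). Agtr2, the type 2 angiotensin receptor, measured 4.86, 4.90 and 4.79 at P7 and 3.47, 3.24 and 3.56 at P14, a change of -1.42 ± 0.17 (2.68-fold lower, adjusted p = 0.000292). The kinase gene Nrk (-1.53 ± 0.21), Fndc3c1 (-1.72 ± 0.26) and Prr32 (-1.89 ± 0.22) also fell, and these 8 calls held whichever array was left out. Embryonic myosin (Myh3) fell, with a change of -1.51 ± 0.32, but its call was lost without some arrays, with a higher adjusted p for Myh3 (up to 0.13 without P14 replicate 2).

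**Figure D2:**
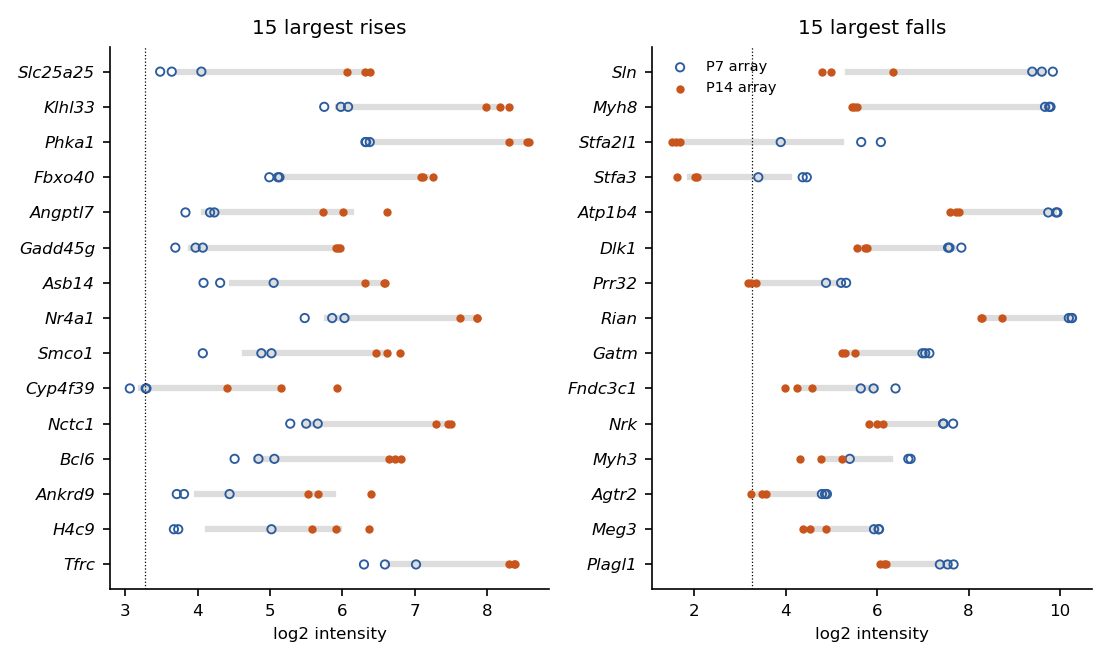
Log2 intensity of each P7 array (open circles) and P14 array (filled circles) for the 15 largest rises and 15 largest falls, with a grey bar between the age means and a dotted line at the background level of 3.27. The arrays of the 2 ages are apart in every gene shown, and the spread within an age is widest in Stfa2l1 at P7 and Sln at P14.

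Known targets of glucocorticoid signalling were among the genes that rose. Glucocorticoids bind the receptor Nr3c1, which enters the nucleus and binds DNA as a dimer. In muscle this is known to restrain growth and to favour protein and glycogen turnover. Of 28 measured genes in a list of known targets and regulators, 12 rose (42.9%, against 1.72% of all genes) and 0 fell. The median of the list was 0.70 against 0.015 for all genes. From P2 to P7 the same list had a median of 0.05. A test of the difference between the intervals was passed by only 1 of the 28 genes, Per1. Per1, a repressor of the circadian clock whose gene is also induced by glucocorticoids, measured 5.71, 5.30 and 5.91 at P7 and 7.12, 7.16 and 7.19 at P14, a rise of 1.52 ± 0.18 (2.86-fold, adjusted p = 0.000204). Arrdc2, an arrestin-domain gene, measured 4.23, 4.11 and 3.57 at P7 and 5.41, 5.31 and 5.37 at P14, a rise of 1.39 ± 0.23 (2.62-fold, adjusted p = 0.00469). Sgk1, a serum- and glucocorticoid-regulated kinase, measured 4.99, 4.86 and 4.72 at P7 and 6.31, 6.10 and 6.14 at P14, a rise of 1.33 ± 0.16 (2.51-fold, adjusted p = 0.000272). All P14 arrays of these genes lay well above all P7 arrays. Lpin1, a phosphatidate phosphatase and coregulator of fat oxidation genes, measured 5.81, 5.53 and 5.87 at P7 and 7.12, 6.98 and 7.07 at P14, a rise of 1.32 ± 0.20 (2.49-fold, adjusted p = 0.00174). Those 4 calls held whichever array was left out.

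The other 8 called targets rested on more of the arrays. Klf9 rose by 1.19 ± 0.24 and Klf15 by 0.99 ± 0.19, both zinc-finger transcription factors. Trim63, the ubiquitin ligase MuRF1 of the thick filament, rose by 1.04 ± 0.25. Named after their values were seen, because the naming rule took 5 members a list, were Zbtb16 (1.16 ± 0.28), Cebpb (0.90 ± 0.18), Tsc22d3 (0.83 ± 0.19), which encodes the glucocorticoid-induced leucine zipper, Arrdc3 (0.74 ± 0.18) and Errfi1 (0.72 ± 0.16). With arrays left out in turn these calls were lost, with a higher adjusted p for Klf9 (up to 0.103 without P14 replicate 3), Klf15 (up to 0.0805 without P14 replicate 1), Trim63 (up to 0.156 without P14 replicate 1), Zbtb16 (up to 0.186 without P14 replicate 3), Cebpb (up to 0.116 without P14 replicate 2), Tsc22d3 (up to 0.157 without P14 replicate 1), Arrdc3 (up to 0.203 without P14 replicate 1) and Errfi1 (up to 0.133 without P14 replicate 3). Without 1 of the 6 P7 and P14 arrays, 4 to 6 members of the list rose, with cyclic loess 7 and with Xist as a covariate 8. Several well-known targets, singled out here after their values were seen, did not pass the test. Fkbp5 changed by 0.16 ± 0.21 (adjusted p = 0.813), the metallothionein genes Mt1 and Mt2 by 0.16 ± 0.25 and -0.58 ± 0.29 (adjusted p = 0.844 and 0.398), and Pdk4, an inhibitor of pyruvate dehydrogenase, by 1.22 ± 0.41 (adjusted p = 0.151). The ligase gene Fbxo32 changed by 0.67 ± 0.38 (adjusted p = 0.456) and the receptor Nr3c1 itself by 0.22 ± 0.20 (adjusted p = 0.693). Many of these genes are known to answer to fasting and to insulin as well.

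**Figure D3:**
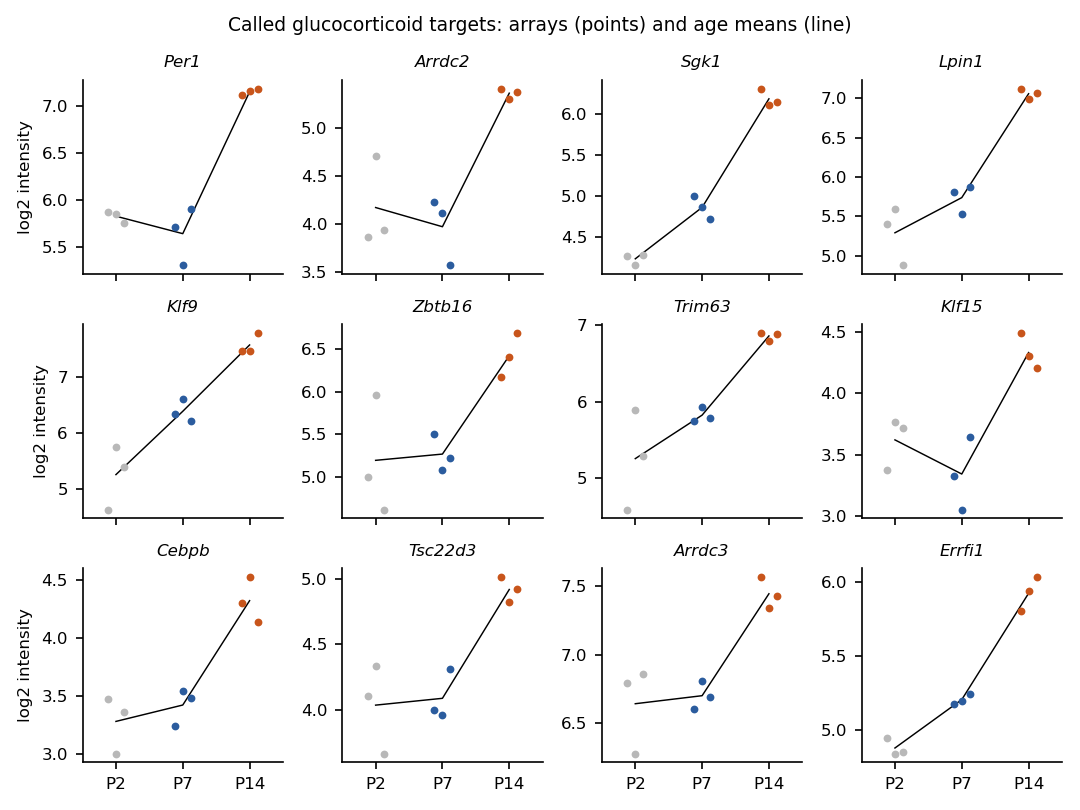
Log2 intensity of each array at P2 (grey), P7 (blue) and P14 (orange) for the 12 glucocorticoid targets that rose, 1 panel a gene, each with its own vertical scale that does not start at 0, and a line through the age means. All P14 arrays lie above all P7 arrays in every panel, from a change of 0.72 in Errfi1 to 1.52 in Per1.

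Promoters of the rising targets were searched for the palindromic element of the glucocorticoid receptor, GNACA followed by any 3 bases and TGTNC, a pattern that is the same on both strands. The search used the RefSeq windows from 250 bases before to 50 after each gene's start (GRCm38.p6). Of the 11 rising targets with a window, 2 held the element (18.2%), Sgk1 and Trim63, shown with the match in capitals. Mt1, which did not pass the test, was the third holder on the list. Rising or not, 3 of the 23 listed targets with a window held it (13.0%). The share was 0.536% of the 16990 measured genes with a window, 1.25% of the 321 rising ones and 0.475% of all 32851 windows. An element of the oestrogen-related receptors, TNAAGGTCA, was also searched for. It was held by 0.935% of the rising genes and 1.18% of the measured genes. A match describes letters in a short window and no binding was measured. The list was made of known targets and regulators, so its share beside that of all genes is no independent result. The Sgk1 window is chr10:21993640-21993939 on the plus strand, with the match beginning at base -188 from the start site. The Trim63 window is chr4:134314870-134315169 on the plus strand, with the match beginning at base -208.
Sgk1: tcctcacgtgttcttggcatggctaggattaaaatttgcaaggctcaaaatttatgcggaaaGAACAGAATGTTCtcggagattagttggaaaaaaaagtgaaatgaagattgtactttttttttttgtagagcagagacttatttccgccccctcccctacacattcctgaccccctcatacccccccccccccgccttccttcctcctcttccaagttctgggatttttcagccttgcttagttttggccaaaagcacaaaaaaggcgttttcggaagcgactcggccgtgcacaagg
Trim63: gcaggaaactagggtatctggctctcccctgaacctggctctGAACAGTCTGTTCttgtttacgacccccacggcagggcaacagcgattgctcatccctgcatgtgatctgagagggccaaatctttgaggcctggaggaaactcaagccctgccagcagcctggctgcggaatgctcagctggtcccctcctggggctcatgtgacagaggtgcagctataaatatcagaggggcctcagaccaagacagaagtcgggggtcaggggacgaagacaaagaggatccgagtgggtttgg

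In the thyroid hormone axis 4 of 14 measured genes rose (28.6%, against 1.72% of all genes) and 0 fell. These were the receptor Thrb (0.91 ± 0.21), the retinoid receptor partner Rxrg (0.82 ± 0.20), the corepressor hairless, Hr (1.02 ± 0.15), and Klf9 (1.19 ± 0.24), the latter pair being known targets of the hormone. Hr measured 3.75, 3.80 and 3.69 at P7 and 4.71, 4.81 and 4.78 at P14, and its call (adjusted p = 0.00196) held whichever array was left out. The other calls were lost with arrays left out, with a higher adjusted p for Thrb (up to 0.183 without P14 replicate 1), Rxrg (up to 0.192 without P14 replicate 2) and Klf9 (up to 0.103 without P14 replicate 3). Outside the naming rule, Thra changed by -0.18 ± 0.19 and the activating deiodinase Dio2 by 0.25 ± 0.23 (adjusted p = 0.749 and 0.694). Of 26 immediate early and Nr4a genes, 4 rose (15.4%) and 0 fell. The orphan receptor Nr4a1 measured 5.86, 5.48 and 6.03 at P7 and 7.86, 7.87 and 7.63 at P14, a rise of 2.00 ± 0.18 (4.0-fold, adjusted p = 1.8e-05). Nr4a3 rose by 1.26 ± 0.19, the MAP kinase phosphatase Dusp1 by 1.38 ± 0.17 and Ccn2 by 0.80 ± 0.16 (the last with an adjusted p of up to 0.0758 without P14 replicate 3).

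Genes of the mitochondrion had mostly positive changes of small size, and some passed the test. Of 41 measured subunits and assembly factors of complex I, the NADH dehydrogenase of the respiratory chain, 8 rose and 0 fell (19.5%, against 1.72% of all genes that rose). The median change was 0.59, and in 37 genes all P14 arrays lay above all P7 arrays, as they did in 14.8% of all genes. The iron-sulphur subunit Ndufs1 measured 7.23, 7.25 and 7.00 at P7 and 8.08, 8.05 and 8.0 at P14, a rise of 0.89 ± 0.16 (1.85-fold, adjusted p = 0.0084). Ndufb8 (0.92 ± 0.17), Ndufb3 (1.06 ± 0.21) and the assembly factors Ndufaf1 (0.85 ± 0.20) and Ndufaf6 (1.09 ± 0.22) also rose. Most of these calls were lost whichever of several arrays was left out, while that of Ndufs1 was lost only without P14 replicate 1. With 1 of the 6 arrays left out 0 to 4 complex I genes passed, fewest without P14 replicate 1, and 4 passed with cyclic loess, where the median was 0.45. In complexes II to V, 3 of 44 (6.82%) rose (the core subunit Uqcrc1 by 1.0 ± 0.18, cytochrome c, Cycs, by 0.94 ± 0.22 and the muscle isoform Cox7a1 by 1.12 ± 0.27) with a median of 0.44, and 0 or 1 did so with any 1 of the 6 arrays left out. Of 71 mitochondrial ribosomal proteins, which build the ribosome that translates the mitochondrial genome, 69 had a positive change and 6 rose (8.45%), with a median of 0.37. Mrpl38 measured 4.91, 4.44 and 4.64 at P7 and 5.68, 5.75 and 5.58 at P14, a rise of 1.01 ± 0.19 (2.01-fold, adjusted p = 0.0114). Mrpl16 (0.89 ± 0.20), Mrps22 (0.79 ± 0.18), Mrpl45 (0.77 ± 0.17) and Mrpl34 (0.77 ± 0.18) rose less, and 0 or 1 of the list passed with any 1 of the 6 arrays left out. The import genes Timm44 (0.79 ± 0.18) and Timm8b (0.73 ± 0.17) were the 2 of 26 (7.69%) that rose, and with any 1 of the 6 arrays left out, or after cyclic loess, 0 or 1 did.

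Of 24 measured genes that control mitochondrial biogenesis 3 rose (12.5%, against 1.72% of all genes), 0 fell and 21 were not called. With any 1 of the 6 P7 and P14 arrays left out 1 or 2 of the list rose, and 2 did after cyclic loess. Perm1, a muscle regulator induced by PGC-1 and the oestrogen-related receptors, measured 4.76, 4.47 and 4.59 at P7 and 6.27, 6.18 and 6.26 at P14, a rise of 1.63 ± 0.21 (3.09-fold, adjusted p = 0.000456). This call held whichever array was left out. PGC-1 alpha itself (Ppargc1a) measured 5.37, 5.46 and 5.37 at P7 and 6.03, 6.54 and 6.24 at P14, a rise of 0.86 ± 0.19 (1.82-fold, adjusted p = 0.0274), and the fusion gene Opa1 rose by 0.80 ± 0.16. Neither kept its call with every array left out, with adjusted p for Ppargc1a (up to 0.154 without P14 replicate 2) and Opa1 (up to 0.0909 without P14 replicate 2). Of 12 subunits and regulators of the AMP-activated kinase, the sensor of cellular energy, 3 rose (25%, against 1.72% of all genes) and 0 fell. The count was 1 or 2 with any 1 of the 6 P7 and P14 arrays left out. The catalytic alpha 2 subunit Prkaa2 measured 8.05, 7.98 and 8.24 at P7 and 9.05, 9.06 and 9.02 at P14, a rise of 0.95 ± 0.17 (1.94-fold, adjusted p = 0.00826). The beta 2 subunit Prkab2 rose by 0.92 ± 0.17 and the gamma 3 subunit Prkag3 by 0.98 ± 0.22. These 3 are the subunits of the complex that is typical of fast muscle. Prkaa2 kept its call with every array left out, while adjusted p rose for Prkab2 (up to 0.0745 without P14 replicate 2) and Prkag3 (up to 0.154 without P14 replicate 2).

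Among fuel pathways, 4 of 15 genes of pyruvate dehydrogenase and fuel choice rose (26.7%, against 1.72% of all genes). Pdhx, the subunit that anchors the third enzyme of the complex, measured 5.13, 5.46 and 5.10 at P7 and 6.35, 6.44 and 6.35 at P14, a rise of 1.15 ± 0.17 (2.22-fold, adjusted p = 0.00153). The catalytic subunit Pdha1 (0.87 ± 0.16), the core enzyme Dlat (0.85 ± 0.17) and the phosphatase regulator Pdpr (0.69 ± 0.17) rose with it, and 1 to 3 of the list rose with any 1 of the 6 arrays left out. Of 22 glycogen genes 5 rose (22.7%) and 0 fell, spanning priming by glycogenin (Gyg, 0.98 ± 0.15), branching (Gbe1, 1.15 ± 0.17), synthesis (Gys1, 0.87 ± 0.21) and the kinase that starts breakdown (Phka1, and Phkb at 1.08 ± 0.17). The count was 4 or 5 with any 1 of the 6 arrays left out. Gys1 lost its call each time (adjusted p up to 0.17 without P7 replicate 2 in limma) and the other 4 held theirs. A count of 5 thus takes in another member of the list. In fatty acid oxidation 5 of 25 rose (20.0%) and 0 fell. Slc25a20, which carries acylcarnitines into the matrix, measured 6.02, 5.77 and 5.53 at P7 and 6.77, 6.85 and 6.85 at P14, a rise of 1.05 ± 0.18 (2.07-fold, adjusted p = 0.00496). Acad11 (1.27 ± 0.25), Acot13 (0.98 ± 0.21), Cpt2 (0.81 ± 0.16) and Acadvl (0.80 ± 0.17) were the others, and 1 to 3 of the 5 passed with any 1 of the 6 arrays left out. In the citrate cycle list the malic enzyme Me1 (1.04 ± 0.17), Idh3a (0.96 ± 0.19) and Mdh2 (0.64 ± 0.15) rose, 3 of 25 (12%), and 1 or 2 did so with any 1 of the 6 arrays left out, the call of Mdh2 being lost each time. Hexokinase 2 (Hk2) measured 5.26, 4.58 and 5.20 at P7 and 6.20, 6.49 and 6.48 at P14, a rise of 1.38 ± 0.20 (2.59-fold, adjusted p = 0.00171). Fbp2, the muscle fructose bisphosphatase, was the 1 glycolysis and gluconeogenesis gene of 27 that fell (-0.72 ± 0.17, adjusted p up to 0.144 without P14 replicate 3).

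**Figure D4:**
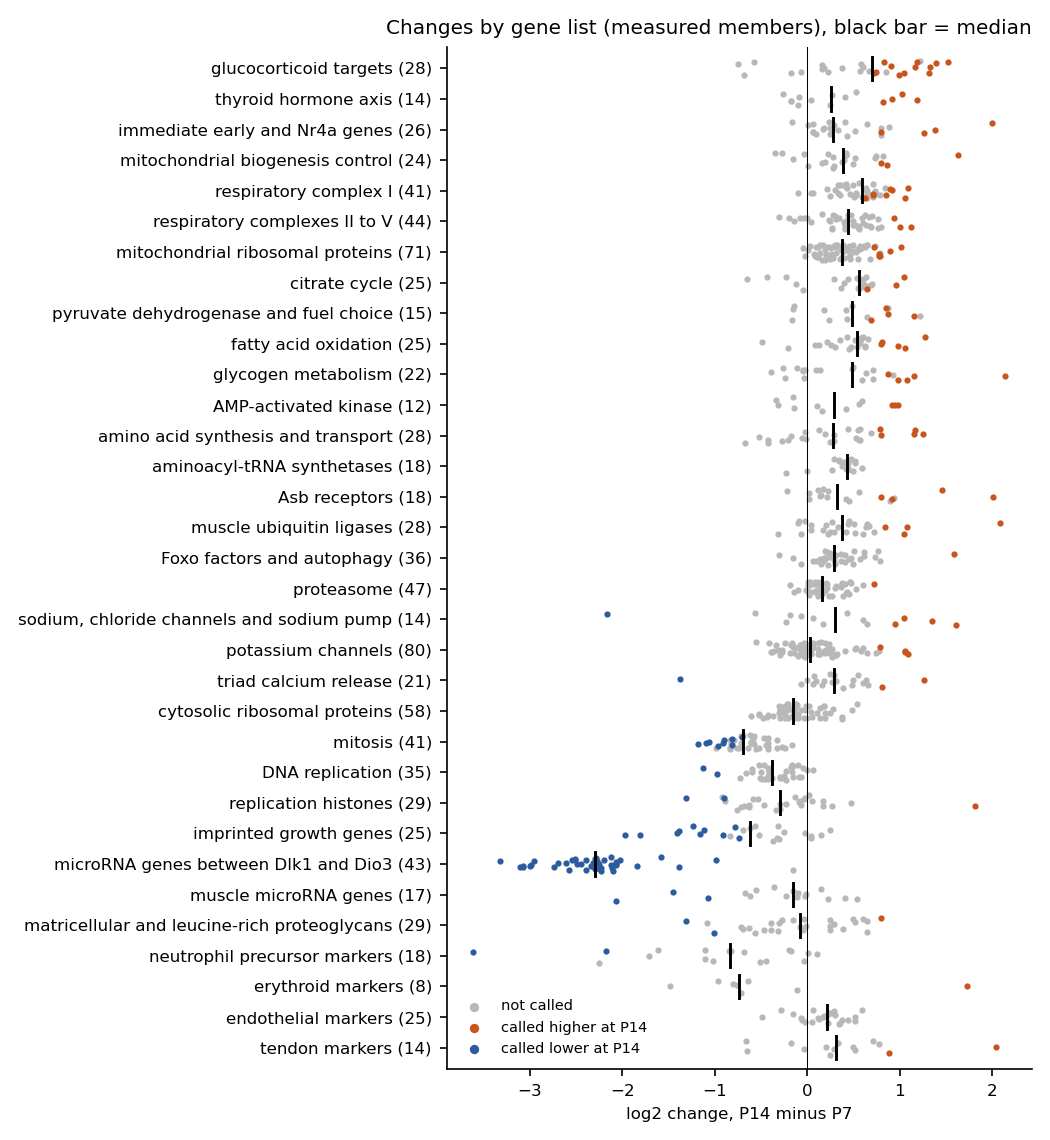
Log2 change from P7 to P14 of each measured gene in selected lists, orange where the gene rose, blue where it fell and grey where it was not called, a black bar at the median of each list, and the number of genes in parentheses. The medians of the energy lists lie to the right of the median of all genes (0.59 for complex I against 0.015), and those of mitosis (-0.70) and imprinted growth genes (-0.62) to the left.

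Some genes of amino acid metabolism and protein turnover rose. Of 28 genes of amino acid synthesis and transport 5 rose (17.9%, against 1.72% of all genes) and 0 fell. Alanine aminotransferase 2 (Gpt2) measured 5.09, 5.14 and 5.39 at P7 and 6.41, 6.59 and 6.35 at P14, a rise of 1.25 ± 0.17 (2.37-fold, adjusted p = 0.000635). Cytosolic aspartate aminotransferase (Got1) measured 7.37, 7.16 and 7.08 at P7 and 8.31, 8.38 and 8.40 at P14, a rise of 1.16 ± 0.20 (2.23-fold, adjusted p = 0.00642). Both calls held whichever array was left out. The transporter Slc7a8 (1.15 ± 0.28) lost its call with any 1 of the 6 P7 and P14 arrays left out. Mitochondrial Got2 (0.78 ± 0.17) and the kinase Bckdk (0.80 ± 0.18) each lost theirs in 5 of those 6 fits. In these fits 2 to 4 of the list rose, and 2 did after cyclic loess. Of 18 Asb genes, which encode substrate receptors of ubiquitin ligases, 4 rose (22.2%) and 0 fell. Asb14 measured 4.08, 4.31 and 5.05 at P7 and 6.59, 6.58 and 6.32 at P14, a rise of 2.01 ± 0.24 (4.04-fold, adjusted p = 0.000279). Asb15 rose by 1.45 ± 0.25, Asb13 by 0.91 ± 0.16 and Asb18 by 0.80 ± 0.19, and 2 or 3 of the 4 rose with any 1 of the 6 arrays left out. The deubiquitinase Usp2 (1.08 ± 0.20) and the p53 ligase Mdm2 (0.84 ± 0.16) rose beside Fbxo40 and Trim63, 4 of 28 in the list (14.3%), and 1 to 3 did so with any 1 of the 6 arrays left out and 2 after cyclic loess. Depp1, a Foxo target, was the 1 of 36 Foxo and autophagy genes to rise (1.59 ± 0.18, adjusted p = 0.000117). Of 47 proteasome genes 1 rose (Psme4, 0.72 ± 0.18), or 2.13%, although 43 had a positive change, and its call was lost with any 1 of the 6 arrays left out.

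In 2 lists of cytosolic protein synthesis no member passed the test. Over all genes 14.6% had an unadjusted p under 0.05. Of 18 aminoacyl-tRNA synthetases, which charge tRNAs with amino acids, 0 were called in limma and 11 had an unadjusted p under 0.05. A positive change was seen in 17, with a median of 0.43. Of 58 cytosolic ribosomal proteins 0 were called in limma, 5 had an unadjusted p under 0.05, and the median was -0.15, or -0.28 after cyclic loess.

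Excitability genes gave 4 rises and 1 fall among 14 sodium and chloride channels and sodium pump subunits, where 1.72% of all genes rose and 0.703% fell. The chloride channel Clcn1, which sets the resting conductance of the fibre, measured 6.21, 6.13 and 6.26 at P7 and 7.10, 7.24 and 7.12 at P14, a rise of 0.95 ± 0.15 (1.94-fold, adjusted p = 0.0032). Ano5, a membrane protein whose loss causes limb-girdle dystrophy, measured 5.63, 5.96 and 5.94 at P7 and 7.46, 7.49 and 7.4 at P14, a rise of 1.61 ± 0.29 (3.04-fold, adjusted p = 0.0086). The pump subunit Atp1b1 rose by 1.04 ± 0.18 while Atp1b4 fell, and the sodium channel subunit Scn4b rose by 1.35 ± 0.26. All but Scn4b kept their call whichever array was left out (adjusted p up to 0.0828 without P14 replicate 2 for Scn4b). Among 80 potassium channel genes 4 rose (5.0%), with a median of 0.02. Kcnc1, a fast delayed rectifier, measured 3.28, 2.99 and 3.33 at P7 and 4.56, 4.10 and 4.21 at P14, a rise of 1.09 ± 0.18 from a P7 mean under the background level (adjusted p = 0.00493). Kcna4 (1.06 ± 0.24), Kcna7 (1.05 ± 0.24) and Kcnma1 (0.78 ± 0.19) rose too, and 1 to 3 of the 4 did so with any 1 of the 6 arrays left out and 1 after cyclic loess. Around the triad, where the membrane signal releases calcium, Stac3 rose by 1.26 ± 0.23 and Tmem38a by 0.81 ± 0.18, both losing their calls with arrays left out, with a higher adjusted p for Stac3 (up to 0.0584 without P14 replicate 3) and Tmem38a (up to 0.132 without P14 replicate 3). The calcium release channel Ryr3 measured 4.86, 4.89 and 4.62 at P7 and 3.32, 3.35 and 3.57 at P14, a change of -1.38 ± 0.19 (2.6-fold lower, adjusted p = 0.000749).

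At the neuromuscular junction 1 of 25 genes rose and 2 fell, with a median of -0.05, against 1.72% of all genes that rose and 0.703% that fell. The adult acetylcholine receptor subunit Chrne rose by 0.77 ± 0.18, and the alpha subunit Chrna1 and the adhesion molecule Ncam1 fell, with changes of -0.74 ± 0.17 and -0.71 ± 0.17. These 3 calls were each lost with any 1 of the 6 P7 and P14 arrays left out, and the fetal subunit Chrng changed by -0.31 ± 0.24 (adjusted p = 0.629). In 21 pairs of a gene known from developing or non-muscle tissue with its adult muscle counterpart, 0 pairs had both members called in opposite directions. The first member fell in 4 pairs (Myh8, Myl4, Casq2 and Ryr3), and cardiac actin (Actc1) rose, by 1.06 ± 0.23. The adult member rose in 4 pairs (Chrne, Cox7a1, Hk2 and Pgam2), and all 21 adult members had a positive change, the others without passing the test. With any 1 of the 6 P7 and P14 arrays left out the calls of Chrne, Cox7a1, Pgam2 and Myl4 were lost, and with some of them that of Actc1, while those of Hk2, Myh8, Casq2 and Ryr3 held. Calsequestrin 2 (Casq2), a calcium-storing protein of the reticulum typical of slow and young muscle, measured 8.93, 8.88 and 8.79 at P7 and 7.33, 7.33 and 8.01 at P14, a change of -1.31 ± 0.19 (2.47-fold lower, adjusted p = 0.0017), while Casq1 changed by 0.59 ± 0.17 (adjusted p = 0.0979). The fast calcium pump Atp2a1 changed by 0.69 ± 0.18 (adjusted p = 0.0582) and Rpl3l, a ribosomal protein of mature muscle, by 0.80 ± 0.35 (adjusted p = 0.306). The positive sign of all 21 adult members was kept in every alternative setting and with each array left out.

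**Figure D5:**
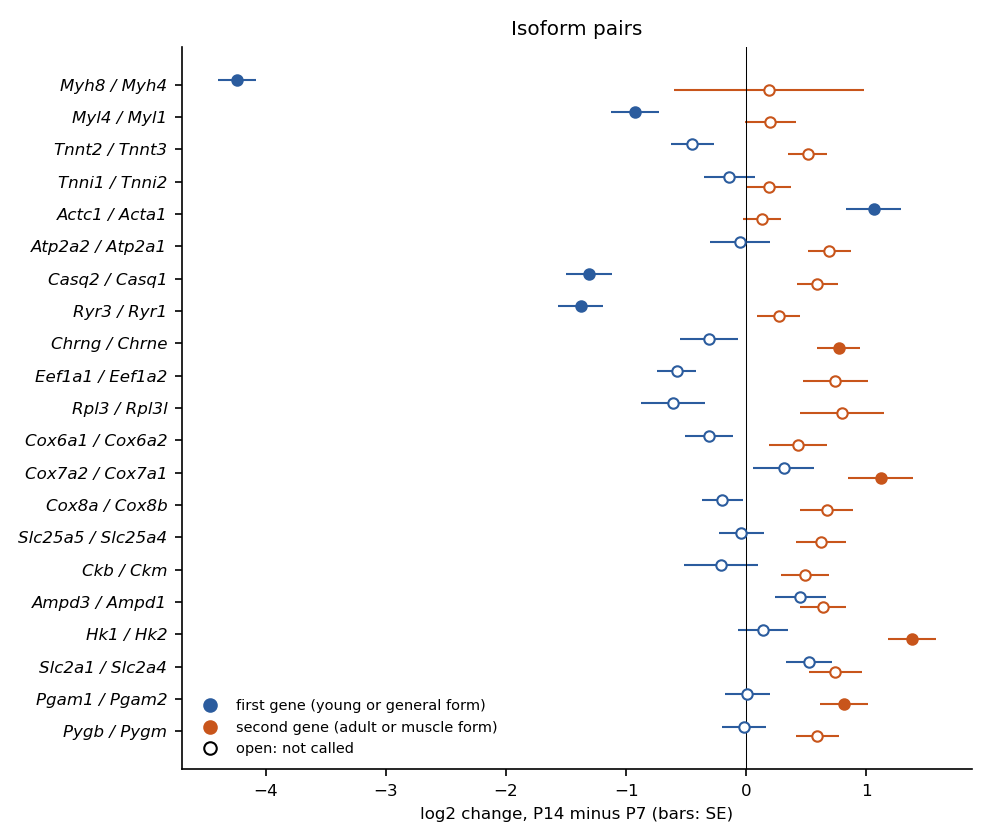
Change from P7 to P14 (log2, with standard error bars) of the 21 pairs, the developmental or widely expressed member in blue and the adult muscle member in orange, with open circles where the test was not passed. The adult members all lie to the right of 0, and the developmental members run from -4.24 (Myh8) to 1.06 (Actc1).

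Several genes of cell division fell. Of 41 measured genes of mitosis 9 fell and 0 rose (22.0%, against 0.703% of all genes), every one had a negative change, and the median was -0.70. The mean level of the list was 4.43 to 4.45 in the P7 arrays and 3.69 to 3.88 in the P14 arrays. Mki67, a marker of cycling cells, measured 6.43, 6.48 and 6.72 at P7 and 5.31, 5.47 and 5.32 at P14, a change of -1.18 ± 0.21 (2.26-fold lower, adjusted p = 0.00812). The kinetochore gene Ndc80 measured 4.69, 5.04 and 4.80 at P7 and 3.66, 4.0 and 3.60 at P14, a change of -1.09 ± 0.19 (2.13-fold lower, adjusted p = 0.00502). Top2a (-1.06 ± 0.20), Ckap2l (-0.96 ± 0.19) and Cenpe (-0.91 ± 0.18) fell as well. With any 1 of the 6 arrays left out 2 to 6 members fell, fewest without P14 replicate 1, with Xist as a covariate 5 did, and after cyclic loess 17 did. The primase Prim1 (-1.13 ± 0.20) and thymidylate synthase Tyms (-0.98 ± 0.16) were the 2 of 35 replication genes that fell. Replication histones were mixed, with H2ac10 (-1.31 ± 0.19) and H4c12 (-0.90 ± 0.17) lower and H4c9 higher (1.81 ± 0.35), the latter pair losing their calls with arrays left out. Their probe sets may be shared in part with near-identical copies. Of 19 cell cycle inhibitors and Gadd45 genes 3 rose (15.8%), namely Gadd45g, Tob2 (1.20 ± 0.22) and Tob1 (1.0 ± 0.20), and 1 to 3 did so with any 1 of the 6 arrays left out. The myogenic regulators did not pass, with changes of -0.27 ± 0.28 for Pax7, 0.08 ± 0.22 for Myf5, 0.23 ± 0.20 for Myod1 and -0.18 ± 0.17 for Myog.

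Imprinted growth genes, which are expressed from one parental allele and form a network that is active in the fetus and silenced after birth, gave 10 falls and 0 rises among 25 measured (40.0%, against 0.703% of all genes that fell). Dlk1, a Notch-like ligand, measured 7.84, 7.58 and 7.55 at P7 and 5.77, 5.74 and 5.56 at P14, a change of -1.97 ± 0.17 (3.91-fold lower, adjusted p = 9.44e-06). Plagl1, a zinc-finger factor held to control other members of the network, measured 7.54, 7.67 and 7.37 at P7 and 6.06, 6.20 and 6.14 at P14, a change of -1.39 ± 0.16 (2.62-fold lower, adjusted p = 0.000154). The non-coding RNAs Rian (-1.81 ± 0.18) and Meg3 (-1.41 ± 0.18) lie on the maternal side of the Dlk1 locus and both fell. Peg3 (-1.12 ± 0.16) and the growth factor Igf2 (-0.91 ± 0.17) fell, as did Zim1 (-1.23 ± 0.19), Zdbf2 (-1.16 ± 0.20), Ndn (-0.78 ± 0.19) and Gnas (-0.74 ± 0.16), the last 4 named after their values were seen. With any 1 of the 6 arrays left out 7 to 9 members fell, and 13 did after cyclic loess. Igf2bp3, a fetal RNA-binding protein that binds the Igf2 transcript, fell too (-1.03 ± 0.16, adjusted p = 0.0031).

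The microRNA genes between Dlk1 and Dio3 fell almost without exception, 42 of 43, with a median of -2.29. Their probe sets read the precursor or host RNA, and mature microRNAs were not measured. Mir495 measured 6.51, 6.32 and 6.28 at P7 and 3.29, 3.16 and 2.71 at P14, a change of -3.32 ± 0.22 (adjusted p = 2.06e-06). Mir380 measured 6.77, 6.49 and 6.70 at P7 and 4.22, 3.09 and 3.36 at P14, a change of -3.10 ± 0.26 (adjusted p = 8.68e-06). All their P14 arrays lay far below all P7 arrays. The other 6 of the 8 largest were Mir376b (-3.07 ± 0.22), Mir379 (-3.07 ± 0.19), Mir300 (-3.0 ± 0.23), Mir323 (-2.99 ± 0.22), Mir154 (-2.95 ± 0.23) and Mir381 (-2.74 ± 0.27). Mir299a was the exception, under the background level at both ages (-0.15 ± 0.20). With any 1 of the 6 P7 and P14 arrays left out 41 fell, the call that was lost each time being that of Mir666 (-0.99 ± 0.22).

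The 43 genes carry 81 mature sequences in RefSeq (GRCm38.p6) with 73 different seeds, the bases 2 to 8 that pair with a target, so that few of them share targeting letters and only 8 seeds occur in 2 sequences. Shown with the seed in capitals are the leading falls and the partners that share a seed with one of them. The miR-379-5p sequence lies at chr12:109709065-109709085 and miR-154-3p at chr12:109738474-109738495, both on the plus strand.
miR-495-3p: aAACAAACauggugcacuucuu
miR-380-5p: aUGGUUGAccauagaacaugcg
miR-379-5p: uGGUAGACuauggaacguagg
miR-1193-5p: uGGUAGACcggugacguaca
miR-376b-5p: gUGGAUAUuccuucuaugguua
miR-376c-5p: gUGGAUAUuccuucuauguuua
miR-300-3p: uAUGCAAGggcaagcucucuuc
miR-323-3p: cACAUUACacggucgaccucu
miR-154-3p: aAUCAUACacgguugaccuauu
miR-381-3p: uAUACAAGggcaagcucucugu
The seed GGUAGAC is shared by miR-379-5p and miR-1193-5p, and UGGAUAU by miR-376b-5p and miR-376c-5p. The 4 genes of these pairs all fell, Mir1193 by a change of -2.23 ± 0.21 and Mir376c by one of -2.39 ± 0.31. The other arm of Mir379, miR-379-3p, which is not shown, shares the seed AUGUAAC with miR-411-3p, and Mir411 fell too.

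Of 17 measured genes of muscle microRNAs, which are among the most abundant of the tissue, 3 fell (17.6%, against 0.703% of all genes) and 0 rose. Only 9 of the 17 had a mean above the background level at P7 or P14. Mir133b, which lies in 1 transcript with Mir206, measured 5.82, 5.51 and 5.85 at P7 and 3.37, 3.64 and 3.95 at P14, a change of -2.07 ± 0.22 (4.21-fold lower, adjusted p = 8.79e-05). Mir1a-1 changed by -1.45 ± 0.22 and Mir133a-1 by -1.07 ± 0.26, the latter losing its call with arrays left out. The mature miR-133b-3p, which lies at chr1:20682834-20682855 on the plus strand, is given with its seed in capitals.
miR-133b-3p: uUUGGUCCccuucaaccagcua
Of all 429 microRNA genes measured outside the Dlk1 to Dio3 interval 11 were called in either direction, these 3 included, which is near the 2.43% of all genes.

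In the matrix lists few genes changed. Among matricellular proteins and leucine-rich proteoglycans 2 of 29 fell and 1 rose, among elastic fibre and crosslinking genes 1 of 26 fell, among glypicans and syndecans 2 of 10 fell, and among matrix proteases and inhibitors 1 of 25 fell and 1 rose, against 0.703% of all genes that fell and 1.72% that rose. The medians of these lists were -0.08, -0.03, -0.08 and -0.21. Periostin (Postn) measured 9.87, 10.04 and 9.71 at P7 and 8.54, 8.52 and 8.61 at P14, a change of -1.31 ± 0.16 (2.48-fold lower, adjusted p = 0.00028). Fibrillin 2 (Fbn2), the fibrillin of fetal microfibrils, measured 5.52, 5.36 and 5.16 at P7 and 3.96, 4.16 and 4.01 at P14, a change of -1.30 ± 0.17 (2.47-fold lower, adjusted p = 0.000635). The proteoglycans Vcan (-1.01 ± 0.20), Gpc3 (-1.05 ± 0.17) and Gpc4 (-0.81 ± 0.17) fell, and Vcan and Gpc4 lost their calls with some arrays left out, with a higher adjusted p for Vcan (up to 0.0863 without P14 replicate 3) and Gpc4 (up to 0.112 without P14 replicate 1). The inhibitor of metalloproteases Timp4 rose by 1.17 ± 0.22, a call lost with some arrays left out (adjusted p up to 0.0736 without P14 replicate 3). Of 14 tendon markers 2 rose, Angptl7 and Cilp2 (0.88 ± 0.18), with 10 positive changes and a median of 0.31. Of 16 bone and cartilage markers Chad rose (1.38 ± 0.27), while 13 of the list had a negative change and the median was -0.53. The calls of Cilp2 and Chad were lost with some arrays left out, with a higher adjusted p for Cilp2 (up to 0.107 without P14 replicate 1) and Chad (up to 0.085 without P14 replicate 2). Of 44 fibrillar and other collagens 0 were called in limma, with 8 at an unadjusted p under 0.05, as were 14.6% of all genes.

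Markers of other cell types were read beside these changes. Of 18 neutrophil precursor genes 2 fell (11.1%, against 0.703% of all genes), Stfa2l1 and Stfa3, and the list had a median of -0.83. The mean level of its 12 genes above background was 3.61 to 4.34 in the P7 arrays and 2.61 to 2.82 in the P14 arrays. With Xist as a covariate 0 members of the list fell, and after cyclic loess 1 did. Both calls were lost with arrays left out, with a higher adjusted p for Stfa2l1 (up to 0.15 without P7 replicate 3) and Stfa3 (up to 0.17 without P14 replicate 3). Outside the naming rule, S100a8 changed by -1.71 ± 0.45 and Ngp by -1.61 ± 0.49 without passing. Of 8 erythroid genes 1 rose (12.5%, against 1.72% of all genes), Tfrc, which fibres also express, and the list had a median of -0.74. Bone and cartilage markers had a mean level of 3.71 to 4.67 in the P7 arrays and 3.71 to 3.89 in the P14 arrays. Endothelial, pericyte, fibro-adipogenic, macrophage, lymphocyte, Schwann cell, adipocyte, mast cell and epidermis markers had 0 called members in limma. From 0 (lymphocyte) to 6 (pericyte) members a list had an unadjusted p under 0.05, as did 14.6% of all genes. The part of these cells in the falls of division and matrix genes was not tested.

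In 43 genes (0.194%) the change from P7 to P14 differed from that from P2 to P7, 35 towards a fall and 8 towards a rise, and 42 of them were called in the later interval. From P2 to P7 alone 73 genes had changed (0.329%). The intervals were 7 and 5 days long and share the P7 arrays. For Slc25a25 the difference between the intervals was 2.40 ± 0.32 (adjusted p = 0.00498), for Gadd45g 2.43 ± 0.35 (adjusted p = 0.008) and for Per1 1.70 ± 0.31 (adjusted p = 0.0394). For Sln it was -3.72 ± 0.58 (adjusted p = 0.0139) and for Myh8 -3.16 ± 0.27 (adjusted p = 0.00023). Of the 43 genes, 27 were microRNA genes between Dlk1 and Dio3. The count was 18 to 44 with an array left out, fewest without P7 replicate 2, and 24 with Xist as a covariate.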

How the data were processed

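RNA of hindlimb muscle was hybridised to 9 microarrays, 3 at each age; the sources do not name the array platform. The values are log2 intensities deposited by the authors, normalized by RMA in Partek per the submitters' processing notes, with no version given. The table held 41345 probe sets, of which 25335 are listed in the platform annotation and 23521 have a single symbol. Those with several symbols (1814) or none were left out, and the brightest probe set of a gene was kept, giving 22180 genes. The number of arrays limits the precision.

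A linear model with 1 mean per age was fitted to all 9 arrays with limma 3.58.1 in R 4.3.3 (lmFit and eBayes, two-sided, Benjamini-Hochberg over 22180 genes, threshold 0.05). The contrasts were P14 minus P7 and that difference minus P7 minus P2. The fit was tested on simulated data. Gene lists (85) are described by counts, with no set test. The comparison, its lists and its tests were chosen with earlier results of these data known. The histone list was rewritten in the symbols of the file after it was seen, and 2 lists, named where used, were added later.

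Genes named are the 15 largest rises and falls with non-overlapping arrays, a brighter-age mean above the gene median and a proper symbol other than a small RNA; up to 5 called members of each list with the smallest adjusted p; both genes of each isoform pair; a few regulators and myosins; the 8 largest microRNA falls between Dlk1 and Dio3; and the 6 largest differences between intervals in each direction. Alternatives were array centring, cyclic loess, leaving out dim genes, mean probe sets, P7 and P14 arrays alone, the replicate block, array weights, a variance trend, Xist as a covariate and each array left out.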

Additional observations from a re-analysis of the deposited data

Results flagged for a closer look

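Each gene here had a change from P7 to P14 that differed from its change from P2 to P7 by a test of the difference itself (limma, adjusted p under 0.05 over all genes). The values are the later change minus the earlier one on the log2 scale, over intervals of 7 and 5 days that share the P7 arrays. The difference was positive for Mettl21e, a muscle protein methyltransferase (3.84 ± 0.53), whose change was -2.94 from P2 to P7 and 0.90 from P7 to P14. Its later change did not pass the test (adjusted p = 0.157 in limma). Its mean was 2.64 at P7, under the background level of 3.27, and 3.54 at P14. The difference was also positive for Gadd45g (2.43 ± 0.35), Slc25a25 (2.40 ± 0.32), Phka1 (1.96 ± 0.36), Nr4a1 (1.93 ± 0.31), the epoxide hydrolase Ephx2 (1.75 ± 0.30), Depp1 (1.73 ± 0.31) and Per1 (1.70 ± 0.31). The difference was negative for Sln (-3.72 ± 0.58), Myh8 (-3.16 ± 0.27), Atp1b4 (-1.93 ± 0.27) and Rian (-1.75 ± 0.31). It was negative too for the microRNA genes Mir495 (-3.68 ± 0.38), Mir376b (-3.27 ± 0.38), Mir300 (-3.04 ± 0.40), Mir323 (-2.98 ± 0.38), Mir381 (-2.93 ± 0.46), Mir380 (-2.84 ± 0.45), Mir329 (-2.83 ± 0.31), Mir154 (-2.76 ± 0.40) and Mir379 (-2.71 ± 0.33). From P2 to P7 the change was -0.52 for Sln, -1.08 for Myh8 and 0.36 for Mir495.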

How the results depend on the processing

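Against 538 called genes, 382 higher and 156 lower, fitting the P7 and P14 arrays alone gave 1051 (747 and 304) and array quality weights 1221 (883 and 338). Cyclic loess gave 240 higher genes and leaving out dim genes 577. With an array left out the calls ran from 214 to 794, the rises from 126 to 554, the falls from 88 to 240, and the differences between intervals, 43 in all, from 18 to 44. With Xist as a covariate 24 of those differences were called. No called gene named here changed direction under any alternative run. Of 219 named genes 175 were called. Among these 175, 41 lost their call with cyclic loess and 25 with Xist as a covariate. Without 1 P7 array 63 to 72 of them lost it, and without 1 P14 array 85 to 87, while 76 held whichever array was left out. The medians of 10 of 85 lists changed sign with cyclic loess, all of them between 0.02 and 0.12 before it. Arrays of the same number did not deviate together (correlations of 0.012, 0.021 and 0.008 between P7 and P14), so the samples share only a number. The replicate block gave 458 calls, 316 higher and 142 lower, of which 429 were among the 538.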

Other observations

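Genes of branched-chain amino acid breakdown and of coenzyme Q synthesis were listed after their values had been seen, so their counts describe and support nothing. The first pathway feeds carbon from leucine, isoleucine and valine into the mitochondrion, and the second makes the electron carrier between the respiratory complexes. Of 24 measured genes of branched-chain amino acid breakdown 8 rose and 23 had a positive change, with a median of 0.61 from P7 to P14 and of -0.11 from P2 to P7. Methylmalonyl-CoA mutase (Mmut) rose by 1.28, the dehydrogenase core Dbt by 1.19 and Aldh6a1 by 1.14. Of 12 measured coenzyme Q genes 3 rose, Coq5 by 1.26, Coq10b by 1.12 and Coq10a by 1.03, and all 12 had a positive change.

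The share of falls was counted on chromosomes 12 and X. Chromosome 12, which holds the Dlk1 locus, had 50 of the 156 falls (32.1%) and 3.37% of all genes, but without small RNA genes it had 4 of 101 falls (3.96%) and 3.16% of genes. The X chromosome had 16 of the 156 (10.3%) and 10 of the 382 rises (2.62%), against 4.05% of all genes. Without small RNA genes it had 15 of 101 falls (14.9%) and 3.86% of genes. The median change of X-linked genes was -0.038. Among the X-linked falls were Atp1b4, Nrk, Agtr2, Capn6, Gpc3, Gpc4, Igsf1, Maged1 and Maged2. Xist was high in 2 P7 arrays and 1 P14 array. With Xist as a covariate 12 of the 16 were called and all 16 had a negative change.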
